A study of Mus musculus with 9 samples.

Results

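The 40 genes described here act in the interferon response and in the presentation of antigen by class I molecules. They were chosen by gene name, and each name occurred once among the 54986 gene IDs of the files. The 9 RNA-seq libraries were made from primary embryonic fibroblasts (MEFs) of C57BL/6 mice, 3 in each of 3 groups. In the first group Zscan4f was overexpressed, in the second Zscan4f3A was overexpressed, and the control libraries have titles that name no overexpressed gene and no empty vector. Zscan4f encodes a zinc finger protein with a SCAN domain, known from the early mouse embryo and embryonic stem cells, and Zscan4f3A is a form of it by its label. All 9 libraries, control included, carry D4-OSKM-2ndMEFs in the label, where OSKM is the usual name for the reprogramming factors Oct4, Sox2, Klf4 and Myc. No group without OSKM is described, and the meaning of D4 is not stated in the labels. Whether replicates are separate cultures is not stated either, so p-values describe the spread among these libraries alone, and that spread may be technical.

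Values are TPM, a level corrected for transcript length and scaled to one total per library, so levels of different genes can be set side by side. Zscan4f itself stood at 570.0, 565 and 558 TPM in the Zscan4f libraries, at 827, 836 and 654 TPM in the Zscan4f3A libraries and at 0.330, 0 and 0.960 TPM in the control libraries. The aligned sequence was estimated at 3.31 to 8.40 gigabases a library, and Zscan4f3A replicate 3 was the lowest. Counts of fragments were not used here, and the depth behind single values was not examined. All 12 fibroblast markers passed the filter on low values, and their summed level ranged from 15189 to 15408 TPM in the Zscan4f libraries, from 14992 to 15463 TPM in the Zscan4f3A libraries and from 15227 to 15312 TPM in the control libraries. The sum does not describe single markers, which differed in direction. On average Col1a1 stood at 2449 TPM with Zscan4f and 2759 TPM in control, and Col1a2 at 5050 TPM with Zscan4f and 4260 TPM in control.

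Interferons are secreted proteins that warn cells of infection. Type I interferons bind the receptor Ifnar1 and Ifnar2, whose kinases Jak1 and Tyk2 phosphorylate Stat2 among others. Together with Irf9, Stat2 is part of a complex that binds an element in the promoters of interferon-stimulated genes, while interferon gamma acts through Ifngr1, Ifngr2, Jak1 and Jak2. The induced proteins sense viral RNA, block viral entry, degrade or modify nucleic acids, and load peptides onto class I molecules. Fibroblasts are a classical cell type for this response and keep a low level of many of its genes without added interferon.

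The best known element of these promoters repeats the letters GAAA, and some promoters are shown because it stands both in members that rose with Zscan4f and in members that fell. The motif GAAANNGAAA was searched on both strands, overlapping matches included, from 250 bases before to 50 bases after each RefSeq start on GRCm38.p6. A match stood in 1131 of the 32851 promoters listed by RefSeq, or 3.44%. A promoter was found for 32 of the 40 genes, and 16 of these 32 had a match in at least 1 promoter (16 of 39 promoters). Of 12 members called higher with Zscan4f against control 7 had a match, as did 2 of 3 called lower that have a promoter in the table, 5 of 14 tested without a call and 2 of 3 not tested. A match is a run of letters and does not show that a factor binds there. The stretches below are 80 bases each, read 5′ to 3′ on the strand of the gene, with matches in capitals. On the reverse strand the motif reads TTTCNNTTTC. The stretch ends at the base before the start for Isg15, Oas1a, Gbp2 and Gbp3, and at position -83 for Bst2 and -95 for Ifit3 and B2m.
Isg15 (chr4:156200819-156200898, minus strand): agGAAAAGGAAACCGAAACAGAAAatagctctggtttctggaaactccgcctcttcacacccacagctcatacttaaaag
Oas1a (chr5:120907526-120907605, minus strand): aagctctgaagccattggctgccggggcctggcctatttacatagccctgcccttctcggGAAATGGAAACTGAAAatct
Gbp2 (chr3:142620583-142620662, plus strand): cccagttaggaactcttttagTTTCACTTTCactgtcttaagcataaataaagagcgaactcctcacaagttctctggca
Gbp3 (chr3:142559964-142560043, plus strand): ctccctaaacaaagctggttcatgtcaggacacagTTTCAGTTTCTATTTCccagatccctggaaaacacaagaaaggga
Bst2 (chr8:71537555-71537634, minus strand): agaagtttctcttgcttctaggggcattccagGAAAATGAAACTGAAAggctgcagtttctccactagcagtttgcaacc
Ifit3 (chr19:34583355-34583434, plus strand): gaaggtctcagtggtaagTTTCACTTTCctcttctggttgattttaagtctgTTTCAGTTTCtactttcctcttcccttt
B2m (chr2:122147513-122147592, plus strand): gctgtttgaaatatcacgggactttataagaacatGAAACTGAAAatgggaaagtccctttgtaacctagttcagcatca
The first 5 belong to genes that rose with Zscan4f and the last pair to genes that fell. Runs of overlapping matches stood in Isg15, Oas1a, Gbp3 and Bst2, and 2 separate matches in Ifit3.

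With Zscan4f against control, 12 of 36 tested members rose and 5 fell. Those that rose were the RNA sensor Ifih1, Oas1a, the guanylate-binding proteins Gbp2 and Gbp3, the membrane proteins Bst2, Ifitm1 and Ifitm3, the ubiquitin-like Isg15, Ifi35, Xaf1 and the class I heavy chains H2-K1 and H2-D1. Those that fell were Ifit3, Samhd1, Ifi27, the peptide transporter subunit Tap2 and the class I light chain B2m. A gene was called where limma's p, adjusted by Benjamini-Hochberg across the 15837 genes tested, was under 0.05. Fits used log2(TPM + 1), and the fold changes below are on that scale, which understates the change of genes at low TPM. Over all genes tested 18.5% were called, 8.74% higher and 9.71% lower, against 47.2% of the members, 33.3% higher and 13.9% lower. The median log2 fold change was 0.17 over the 36 members and -0.0029 over all genes tested, with members from -0.52 to 0.80. The 3 Zscan4f libraries lay wholly above the 3 control libraries in 15 of 36 members and wholly below them in 6, where 19.0% and 19.2% of all genes tested did so. Oasl1, Rsad2, Mx1 and Cxcl10 did not reach 1 TPM in 3 libraries and were not tested. The members were named with earlier results of these data known, so the shares describe them and support nothing further.

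**Figure D1:**
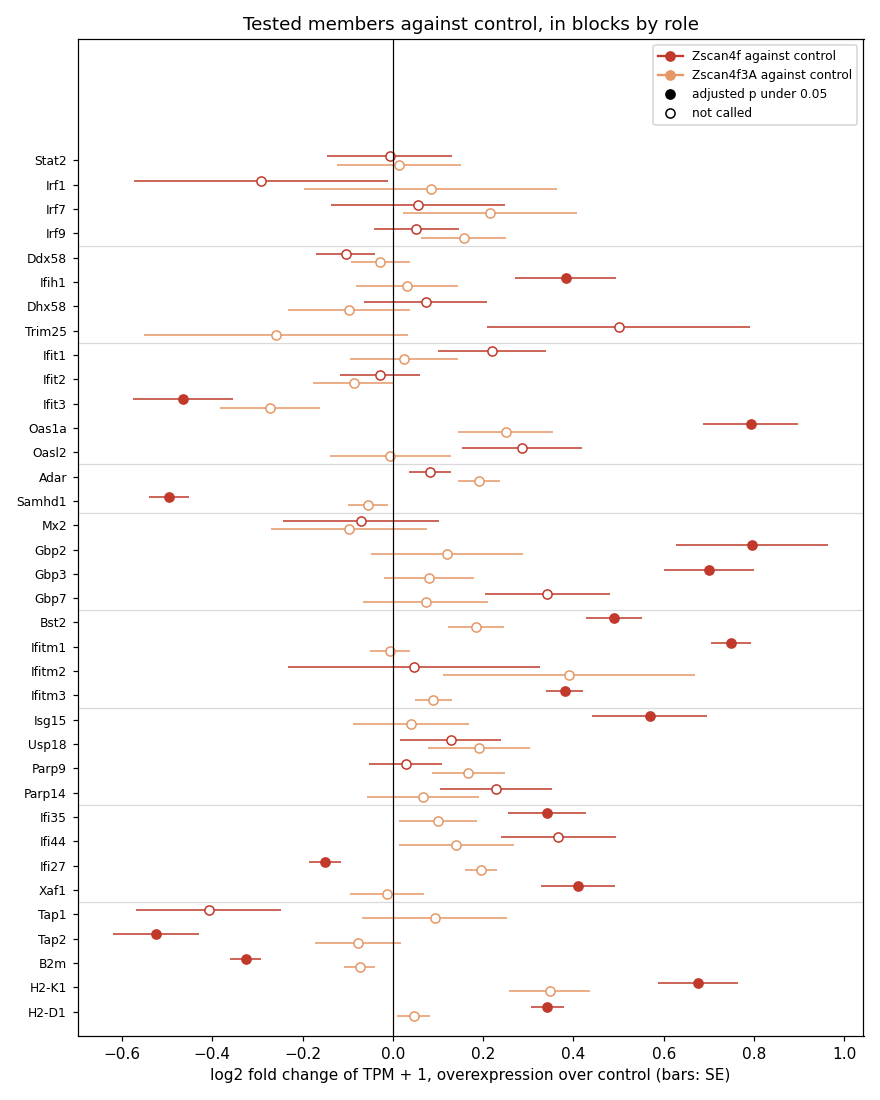
Log2 fold change of TPM + 1 for the 36 tested members (x axis), Zscan4f against control in red and Zscan4f3A against control in orange, both against the same control libraries. Bars are the SE of the fit, filled points have an adjusted p under 0.05 and grey lines part blocks of like role. The 17 filled points all belong to Zscan4f.

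Of the 12 fibroblast markers 3 were called higher and 5 lower with Zscan4f against control, or 66.7%, where 18.5% of all genes tested were. Against Zscan4f3A 3 were higher and 4 lower, or 58.3%, where 15.1% of all genes tested were. Zscan4f3A against control called 0 of them. Markers of other cell types were read in the same libraries. Ptprc and Adgre1, both on the list of macrophage markers, stayed below 0.1 TPM in every library, and 5 of 10 macrophage markers below 0.5 TPM. The summed level of the 10 was 26.6 to 28.4 TPM in the Zscan4f libraries, 19.0 to 21.2 TPM in the Zscan4f3A libraries and 19.0 to 21.8 TPM in the control libraries, with Cd68 called higher and Cd14 lower with Zscan4f against control. Only 4 of the 10 were tested, of which 1 was higher and 1 lower, where 18.5% of all genes tested were called. Against Zscan4f3A, Cd68 (0.57, SE 0.09, adjusted p = 0.0032) and Itgam (0.99, SE 0.21, adjusted p = 0.016) were called higher and 0 lower. These are 2 of the 4 tested, where 15.1% of all genes tested were called. Itgam also lay above control in every Zscan4f library, without a call (adjusted p = 0.054). Dendritic and lymphoid markers summed to less than 1 TPM in all libraries, and Cd3e, Ms4a1 and Siglech were listed at 0 in all 9. The 7 endothelial markers summed to 46.2 to 47.6 TPM with Zscan4f, 33.0 to 34.6 TPM with Zscan4f3A and 30.9 to 33.8 TPM in control, nearly all of it Tek, while Cdh5 did not exceed 0.0496 TPM and Cldn5 was listed at 0. Epithelial markers rose in 8 of 9 and fell in 1 with Zscan4f against control, with sums of 319 to 324 TPM with Zscan4f, 146 to 151 TPM with Zscan4f3A and 128 to 132.5 TPM in control. That is 100% of the epithelial markers called, where 18.5% of all genes tested were. Against Zscan4f3A, 8 of 9 epithelial markers and Tek were called higher, and 0 lower. The epithelial share was 88.9%, where 15.1% of all genes tested were called. Of the 7 endothelial markers 2 were tested, and 1 was called higher with Zscan4f against control, where 18.5% of all genes tested were called. Against Zscan4f3A it was also 1 of the 2, where 15.1% of all genes tested were called. The part of fibroblast, macrophage, endothelial and epithelial genes in the changes of the members was not tested. In bulk RNA, fewer cells of a type and less RNA per cell cannot be told apart.

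Interferon ligands were at or near 0 in every library. Of 21 ligand genes, 20 stayed below 0.5 TPM in all 9 libraries and Ifng was listed at 0 in all of them. Ifnb1 reached at most 0.124 TPM. The exception was Ifnz, of the limitin type, at 0.995 ± 0.339 TPM with Zscan4f, 1.04 ± 0.288 TPM with Zscan4f3A and 0.906 ± 0.128 TPM in control (SD, n = 3 each), without a call in any comparison. The receptor chains of both types were present, Ifnar1 at 41.4 ± 5.02 TPM with Zscan4f, 37.1 ± 3.29 TPM with Zscan4f3A and 39.96 ± 3.95 TPM in control and Ifngr1 at 24.8 ± 2.43 TPM with Zscan4f, 26.5 ± 0.900 TPM with Zscan4f3A and 28.7 ± 3.36 TPM in control. Ifngr2 fell with Zscan4f, to 15.7 ± 0.339 TPM against 19.0 ± 0.773 TPM in control, or -0.26 (SE 0.06, adjusted p = 0.025) as log2 fold change. That call was lost in 5 of 16 alternatives, namely the fits without any 1 Zscan4f library or control replicate 1 or 2, and adjusted p ran from 0.017 to 0.082.

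The factors that carry the signal to the promoters were called in none of the 3 comparisons. Stat2, which carries the activation domain of the complex, had 25.1, 20.8 and 24.03 TPM in the Zscan4f libraries, 21.3, 22.6 and 27.4 TPM in the Zscan4f3A libraries and 21.6, 20.7 and 28.6 TPM in the control libraries, and the groups overlapped throughout. Irf9, the DNA-binding part of the complex, had 26.5, 21.9 and 23.7 TPM in the Zscan4f libraries, 27.8, 24.8 and 24.9 TPM in the Zscan4f3A libraries and 23.6, 20.6 and 25.2 TPM in the control libraries. Irf9 and the overlapping Rnf31 lie on the same strand, so reads of either may be counted to the other. Irf7, which drives interferon alpha genes, had 5.97, 5.14 and 5.22 TPM in the Zscan4f libraries, 4.60, 5.95 and 8.54 TPM in the Zscan4f3A libraries and 4.21, 5.84 and 5.66 TPM in the control libraries, overlaps the opposite-strand Phrf1 at 30.9 to 42.0 TPM, and was not called. Irf1, a factor induced by interferon gamma, had 11.2, 23.6 and 10.6 TPM in the Zscan4f libraries, 21.4, 17.2 and 17.6 TPM in the Zscan4f3A libraries and 20.5, 13.6 and 19.2 TPM in the control libraries, and Zscan4f replicate 2 stood far above the other Zscan4f libraries. Leaving out Zscan4f replicate 2 gave adjusted p = 0.047 and a log2 fold change of -0.64 for Zscan4f against control, where adjusted p ran from 0.047 to 0.88 over 16 alternatives. Against Zscan4f3A the same omission gave adjusted p = 0.038 and a log2 fold change of -0.73, with adjusted p from 0.038 to 0.75 over 16 alternatives. Adjusted p for these 4 factors with Zscan4f against control was 0.98 for Stat2, 0.78 for Irf9, 0.89 for Irf7 and 0.55 for Irf1.

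Among the sensors of viral RNA 1 of 4 rose. Ifih1 (ENSMUSG00000026896.14, chromosome 2, 62595798 to 62646255; positions here and below are on GRCm38), the sensor MDA5 of long double-stranded RNA, had 6.14, 6.53 and 6.70 TPM in the Zscan4f libraries, 4.84, 5.29 and 4.45 TPM in the Zscan4f3A libraries and 4.66, 4.03 and 5.57 TPM in the control libraries. All 3 Zscan4f libraries were above every other library, and the log2 fold change against control was 0.38 (SE 0.11, adjusted p = 0.048). The call was lost in 10 of 16 alternatives, among them the fit with no filter, the fit of 2 groups only and the fits without any 1 Zscan4f library, Zscan4f3A replicate 1 or 2 or control replicate 1 or 2, and adjusted p ran from 0.024 to 0.14. Ddx58, the sensor RIG-I, had 18.9, 20.7 and 20.6 TPM in the Zscan4f libraries, 20.5, 20.6 and 22.6 TPM in the Zscan4f3A libraries and 20.6, 22.7 and 21.6 TPM in the control libraries, and its groups overlapped. Dhx58, the other helicase of the family, ranged over 2.11 to 3.34 TPM in all libraries. Trim25, the ubiquitin ligase that acts with RIG-I, had 77.1, 74.7 and 40.7 TPM in the Zscan4f libraries, 36.5, 35.3 and 36.5 TPM in the Zscan4f3A libraries and 36.4, 33.6 and 66.4 TPM in the control libraries. Its values were widely spread within the Zscan4f and the control libraries, and it was not called (adjusted p = 0.30 against control). Against Zscan4f3A, Trim25 had adjusted p = 0.040 and a log2 fold change of 1.05 without Zscan4f replicate 3, and adjusted p ran from 0.040 to 0.30 over 16 alternatives.

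Of the RNA-binding IFIT proteins and the oligoadenylate synthetase family, Oas1a rose and Ifit3 fell. Oas1a (ENSMUSG00000052776.10, chromosome 5, 120896256 to 120907521), which makes 2-5A to activate RNase L, had 4.07, 4.37 and 4.78 TPM in the Zscan4f libraries, 2.60, 2.60 and 2.92 TPM in the Zscan4f3A libraries and 2.42, 2.01 and 1.94 TPM in the control libraries. The Zscan4f libraries stood above the others without overlap, and the log2 fold change was 0.79 (SE 0.11, adjusted p = 0.0012) against control and 0.54 (SE 0.11, adjusted p = 0.010) against Zscan4f3A. Its neighbour Oas1g, a close copy, rose as well, to 1.57 ± 0.426 TPM with Zscan4f against 0.358 ± 0.166 TPM in control (log2 fold change 0.91, SE 0.18, adjusted p = 0.0083). Reads of such copies may be assigned to the wrong one, so the values of the pair are not independent. Ifit3 (ENSMUSG00000074896.3, chromosome 19, 34583531 to 34588731), which binds viral RNA together with Ifit1, had 5.87, 4.35 and 4.90 TPM in the Zscan4f libraries, 6.44, 5.94 and 5.28 TPM in the Zscan4f3A libraries and 7.58, 7.25 and 7.05 TPM in the control libraries. Every Zscan4f library was below every control library, with the log2 fold change at -0.47 (SE 0.11, adjusted p = 0.020). That call was lost in 4 of 16 alternatives, namely the fits without Zscan4f replicate 2 or 3 or control replicate 1 or 2, and adjusted p ran from 0.012 to 0.067. Its near copy Ifit3b stood at 1.72 ± 0.0673 TPM with Zscan4f, 1.96 ± 0.185 TPM with Zscan4f3A and 2.38 ± 0.165 TPM in control and was not called. Ifit1 lay at 2.82 to 4.34 TPM, Ifit2 at 10.2 to 12.5 TPM and Oasl2 at 2.86 to 4.77 TPM over the 9 libraries, with overlap between Zscan4f and control in each. Oasl1, below the filter, had 0.865, 0.619 and 0.751 TPM in the Zscan4f libraries, 0.490, 0.324 and 0.360 TPM in the Zscan4f3A libraries and 0.438, 0.235 and 0.213 TPM in the control libraries, and its Zscan4f libraries were the highest 3.

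Of the enzymes that act on nucleic acids, Samhd1 fell. Samhd1 (ENSMUSG00000027639.16, chromosome 2, 157097533 to 157135265) breaks down deoxynucleotides and so limits retroviral reverse transcription. It had 43.1, 43.6 and 41.1 TPM in the Zscan4f libraries, 58.6, 57.3 and 58.6 TPM in the Zscan4f3A libraries and 62.2, 57.7 and 61.6 TPM in the control libraries. The Zscan4f libraries were all lower than the rest, with the log2 fold change at -0.50 (SE 0.04, adjusted p = 0.00015) against control and -0.44 (SE 0.04, adjusted p = 0.00043) against Zscan4f3A. Adar, which edits adenosine to inosine in double-stranded RNA, had 26.7, 26.5 and 27.8 TPM in the Zscan4f libraries, 30.3, 29.0 and 28.3 TPM in the Zscan4f3A libraries and 25.4, 25.3 and 25.7 TPM in the control libraries. Its Zscan4f libraries were above the control libraries and below the Zscan4f3A libraries, with an adjusted p of 0.28 and 0.16 for these comparisons, so neither was called. Rsad2, or viperin, which makes a chain-terminating nucleotide, was below 0.5 TPM in all 9 libraries.

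Among the interferon-induced GTPases, Gbp2 and Gbp3 rose and Gbp7 and Mx2 were not called. Gbp2 (ENSMUSG00000028270.12, chromosome 3, 142620602 to 142638008), a guanylate-binding protein that coats intracellular microbes, had 5.58, 5.95 and 5.66 TPM in the Zscan4f libraries, 4.16, 2.16 and 3.59 TPM in the Zscan4f3A libraries and 2.88, 3.05 and 2.71 TPM in the control libraries. Its log2 fold change was 0.80 (SE 0.17, adjusted p = 0.012) against control, close to that of Oas1a. Gbp3 (ENSMUSG00000028268.14, chromosome 3, 142560026 to 142573209), of the same family and the same cluster on chromosome 3, had 10.9, 13.4 and 12.7 TPM in the Zscan4f libraries, 7.86, 7.71 and 7.37 TPM in the Zscan4f3A libraries and 8.14, 6.62 and 6.88 TPM in the control libraries, with the log2 fold change at 0.70 (SE 0.10, adjusted p = 0.0016). Both stood above control and above Zscan4f3A in every Zscan4f library. Gbp7 had 6.35, 8.85 and 6.16 TPM in the Zscan4f libraries, 6.28, 5.79 and 4.99 TPM in the Zscan4f3A libraries and 5.48, 4.91 and 5.65 TPM in the control libraries, and its Zscan4f libraries lay above the control libraries with adjusted p = 0.13. Sequences of the cluster are related, and the sources used here do not say how the authors' quantification divided shared reads. Mx2 ranged over 0.602 to 1.37 TPM, and Mx1, the GTPase that blocks influenza virus in mice with an intact allele, did not exceed 0.318 TPM.

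The membrane proteins that block viral entry or release included the most abundant members after B2m. Ifitm1 (ENSMUSG00000025491.14, chromosome 7, 140967221 to 140969825) had 161, 155 and 154 TPM in the Zscan4f libraries, 90.0, 96.9 and 90.9 TPM in the Zscan4f3A libraries and 89.6, 96.9 and 92.4 TPM in the control libraries. The Zscan4f libraries were far above the others, which overlapped, and the log2 fold change against control, 0.75 (SE 0.04, adjusted p = 1.6e-05), had the smallest p of all members. Ifitm3 (ENSMUSG00000025492.6, chromosome 7, 141009586 to 141010770), which traps influenza virus in endosomes, had 979, 1072 and 1005 TPM in the Zscan4f libraries, 841, 847 and 807 TPM in the Zscan4f3A libraries and 791, 799 and 755 TPM in the control libraries, with the log2 fold change at 0.38 (SE 0.04, adjusted p = 0.00036). Bst2 (ENSMUSG00000046718.8, chromosome 8, 71534255 to 71537456), or tetherin, which holds budding virus at the cell surface, had 48.9, 47.4 and 43.7 TPM in the Zscan4f libraries, 38.0, 37.5 and 37.2 TPM in the Zscan4f3A libraries and 33.9, 30.5 and 34.5 TPM in the control libraries. For Bst2 the 3 groups were in separate ranges, with Zscan4f highest and control lowest, and the log2 fold change of Zscan4f against control was 0.49 (SE 0.06, adjusted p = 0.00090).

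Ifitm2, a neighbour in the same cluster on chromosome 7, was not called. Ifitm2 (ENSMUSG00000060591.9, chromosome 7, 140954837 to 140955987) had 729, 769 and 746 TPM in the Zscan4f libraries, 958, 957 and 934 TPM in the Zscan4f3A libraries and 413, 964 and 953 TPM in the control libraries. Control replicate 1 was at less than 50% of the other control libraries, while RP24-243J4.5, an unnamed gene that overlaps Ifitm2 on the same strand, stood at 734 TPM in control replicate 1 and at 0 to 4.13 TPM in the other 8 libraries. With all libraries Ifitm2 was not called (log2 fold change 0.05, SE 0.28, adjusted p = 0.94). It had adjusted p = 0.00063 and a log2 fold change of -0.36 without control replicate 1, opposite in sign, where adjusted p ran from 0.00063 to 1.0 over 16 alternatives. The Zscan4f libraries were also wholly below the Zscan4f3A libraries, with adjusted p = 0.46 in the fit of all libraries. For this comparison Ifitm2 had adjusted p = 0.00053 and a log2 fold change of -0.34 without control replicate 1, and adjusted p = 0.0023 in a fit of the Zscan4f and Zscan4f3A libraries alone. Its range was from 0.00053 to 0.62 over 16 alternatives.

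Isg15 (ENSMUSG00000035692.6, chromosome 4, 156199424 to 156200818), a ubiquitin-like protein that is attached to other proteins, had 15.3, 16.4 and 16.4 TPM in the Zscan4f libraries, 13.1, 11.2 and 8.55 TPM in the Zscan4f3A libraries and 10.9, 10.6 and 9.93 TPM in the control libraries. It rose with Zscan4f, with its log2 fold change at 0.57 (SE 0.13, adjusted p = 0.016) and no overlap with control. The call was lost in 3 of 16 alternatives, namely the fits without Zscan4f replicate 2 or 3 or control replicate 3, and adjusted p ran from 0.0016 to 0.055. Usp18, the protease that removes Isg15 and dampens the receptor, had 3.49, 3.03 and 3.49 TPM in the Zscan4f libraries, 3.50, 3.87 and 3.22 TPM in the Zscan4f3A libraries and 3.38, 2.97 and 2.58 TPM in the control libraries and was not called. Parp9 and Parp14, which transfer ADP-ribose, were not called either, at 13.6 to 16.7 TPM and 1.33 to 2.25 TPM over the 9 libraries. Parp9 shares its locus with opposite-strand genes, among them Dtx3l at 5.60 to 6.67 TPM and an unnamed one that reached 17.9 TPM in a control library.

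Ifi35, Xaf1 and Ifi27 were also called, the last in the other direction. Ifi35 (ENSMUSG00000010358.13, chromosome 11, 101448407 to 101458698), a leucine zipper protein, had 33.5, 34.4 and 30.1 TPM in the Zscan4f libraries, 28.2, 26.6 and 27.6 TPM in the Zscan4f3A libraries and 28.6, 25.6 and 22.7 TPM in the control libraries, with the log2 fold change at 0.34 (SE 0.09, adjusted p = 0.026). This call was lost in 5 of 16 alternatives, namely the fit with no filter and the fits without Zscan4f replicate 1 or 2 or control replicate 2 or 3, and adjusted p ran from 0.013 to 0.089. Xaf1 (ENSMUSG00000040483.15, chromosome 11, 72301629 to 72313733), which binds the apoptosis inhibitor XIAP, had 39.8, 40.2 and 39.6 TPM in the Zscan4f libraries, 26.4, 30.7 and 31.5 TPM in the Zscan4f3A libraries and 27.0, 32.3 and 30.2 TPM in the control libraries, with the log2 fold change at 0.41 (SE 0.08, adjusted p = 0.0093) and the Zscan4f libraries close together and above all others. Ifi27 (ENSMUSG00000064215.13, chromosome 12, 103434211 to 103440239), a small hydrophobic protein of mitochondria, had 93.8, 94.9 and 92.9 TPM in the Zscan4f libraries, 123, 120.0 and 116 TPM in the Zscan4f3A libraries and 102, 107 and 104 TPM in the control libraries. Its 3 groups did not overlap, with Zscan4f lowest and Zscan4f3A highest, and the log2 fold change of Zscan4f against control was -0.15 (SE 0.04, adjusted p = 0.019). That call was lost in 4 of 16 alternatives, namely the fits without Zscan4f replicate 1 or 3 or control replicate 2 or 3, and adjusted p ran from 0.015 to 0.069. Ifi44 had 1.51, 1.20 and 1.22 TPM in the Zscan4f libraries, 1.09, 0.828 and 1.01 TPM in the Zscan4f3A libraries and 0.844, 0.864 and 0.665 TPM in the control libraries, with no overlap between Zscan4f and control and adjusted p = 0.084. Cxcl10, a chemokine that draws T cells and is among the strongest targets of interferon, ranged over 0.261 to 1.20 TPM.

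**Figure D2:**
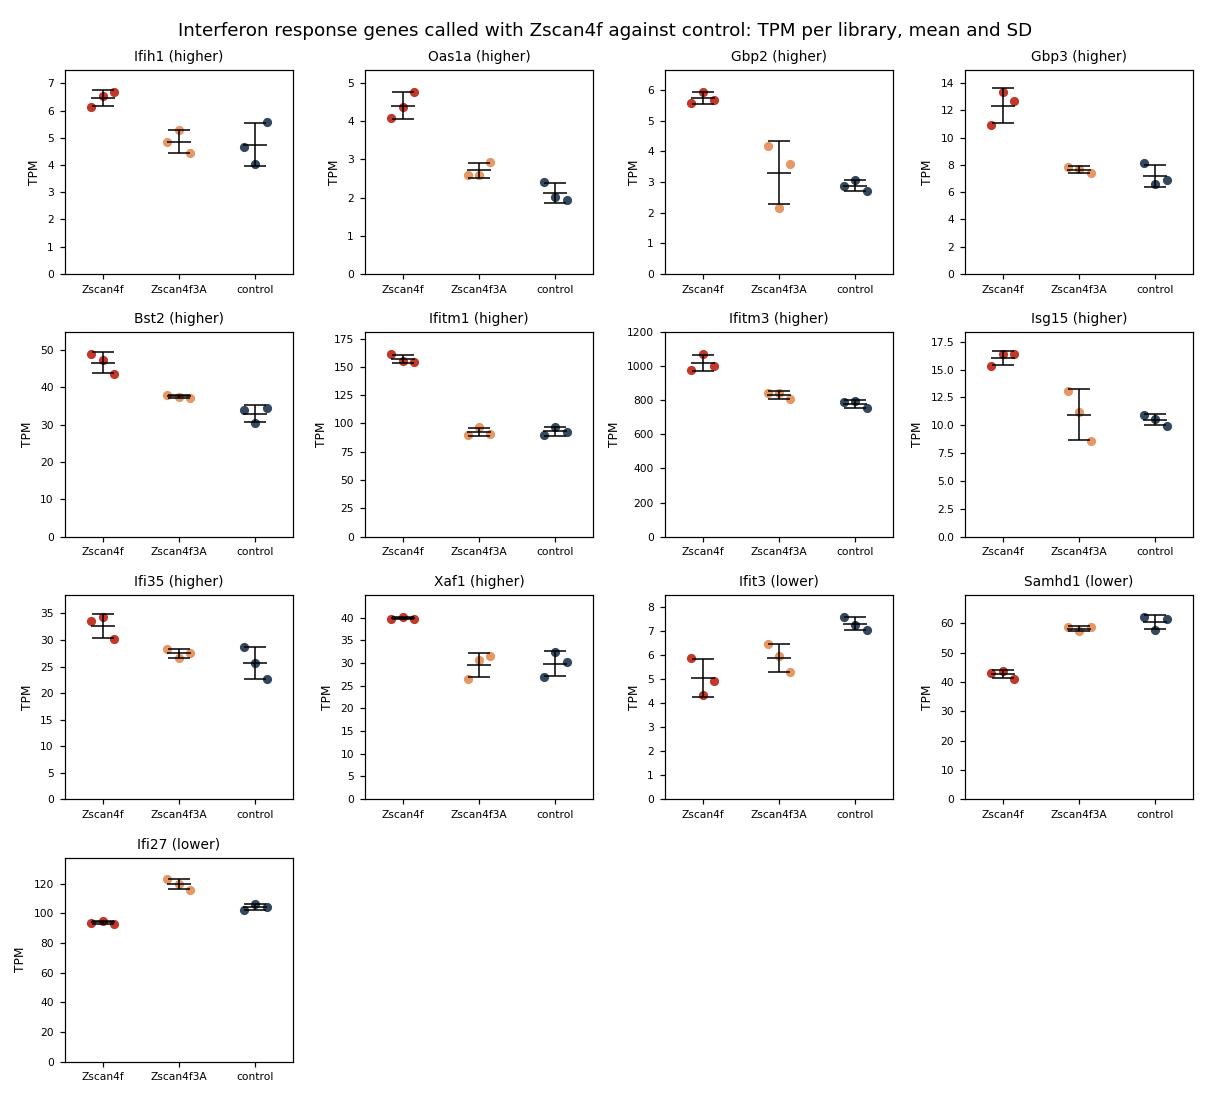
TPM (y axis, from 0) in each library of the 13 interferon response genes called with Zscan4f against control, with the mean and SD of each group of 3 libraries. In the 10 genes called higher all Zscan4f points lie above all control points, and in Ifit3, Samhd1 and Ifi27 below them.

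Of the 5 members that act in class I presentation 4 were called. The heavy chains H2-K1 and H2-D1, which hold the peptide, rose with Zscan4f, while the light chain B2m that pairs with them and Tap2, a subunit of the pump that brings peptides into the endoplasmic reticulum, fell. H2-K1 (ENSMUSG00000061232.15, chromosome 17, 33996017 to 34000333) had 74.2, 65.4 and 70.2 TPM in the Zscan4f libraries, 50.8, 54.3 and 61.6 TPM in the Zscan4f3A libraries and 39.4, 47.0 and 43.9 TPM in the control libraries. The 3 groups lay apart, with Zscan4f highest, and the log2 fold change against control was 0.68 (SE 0.09, adjusted p = 0.0011). H2-D1 (ENSMUSG00000073411.11, chromosome 17, 35262730 to 35267499) had 241, 250.3 and 255 TPM in the Zscan4f libraries, 209, 204 and 195 TPM in the Zscan4f3A libraries and 196, 198 and 193 TPM in the control libraries, with the log2 fold change at 0.34 (SE 0.04, adjusted p = 0.00037). H2-K1 and H2-D1 are closely related in sequence, so part of the reads of one may have been assigned to the other.

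B2m (ENSMUSG00000060802.8, chromosome 2, 122147686 to 122153083), the most abundant member, had 1018, 1018 and 1039.6 TPM in the Zscan4f libraries, 1250.3, 1254 and 1162 TPM in the Zscan4f3A libraries and 1268, 1298 and 1290.3 TPM in the control libraries. Every Zscan4f library was below every library of the other groups, with the log2 fold change at -0.33 (SE 0.03, adjusted p = 0.00030) against control. Tap2 (ENSMUSG00000024339.12, chromosome 17, 34203527 to 34216321) had 5.81, 6.46 and 5.95 TPM in the Zscan4f libraries, 7.78, 9.26 and 8.93 TPM in the Zscan4f3A libraries and 10.2, 8.71 and 8.63 TPM in the control libraries, with the log2 fold change at -0.52 (SE 0.10, adjusted p = 0.0058). Tap1 (ENSMUSG00000037321.17, chromosome 17, 34187553 to 34197225), the other subunit, had 5.89, 4.90 and 6.23 TPM in the Zscan4f libraries, 7.77, 6.77 and 11.2 TPM in the Zscan4f3A libraries and 7.93, 7.92 and 7.62 TPM in the control libraries. Its Zscan4f libraries were also below all others, but it was not called (-0.41, SE 0.16, adjusted p = 0.12). Zscan4f3A replicate 3 stood apart at 11.2 TPM, and Tap1 had adjusted p = 0.023 and a log2 fold change of -0.41 without Zscan4f3A replicate 3, against adjusted p from 0.023 to 0.30 over 16 alternatives. In a fit of the Zscan4f and control libraries alone its adjusted p was 0.030.

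Per B2m transcript there were more heavy chain transcripts with Zscan4f. The sum of H2-K1 and H2-D1 was 31.0, 31.0 and 31.3% of B2m in the Zscan4f libraries, 20.8, 20.6 and 22.04% in the Zscan4f3A libraries and 18.6, 18.9 and 18.4% in the control libraries. The means were 31.1 ± 0.160% with Zscan4f, 21.1 ± 0.787% with Zscan4f3A and 18.6 ± 0.263% in control (SD, n = 3 each), and no 2 groups overlapped. This share was chosen after the values were seen and is given without a test. The ratio of H2-K1 to H2-D1 was 0.308, 0.261 and 0.276 in the Zscan4f libraries, 0.243, 0.266 and 0.316 in the Zscan4f3A libraries and 0.201, 0.237 and 0.227 in the control libraries.

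**Figure D3:**
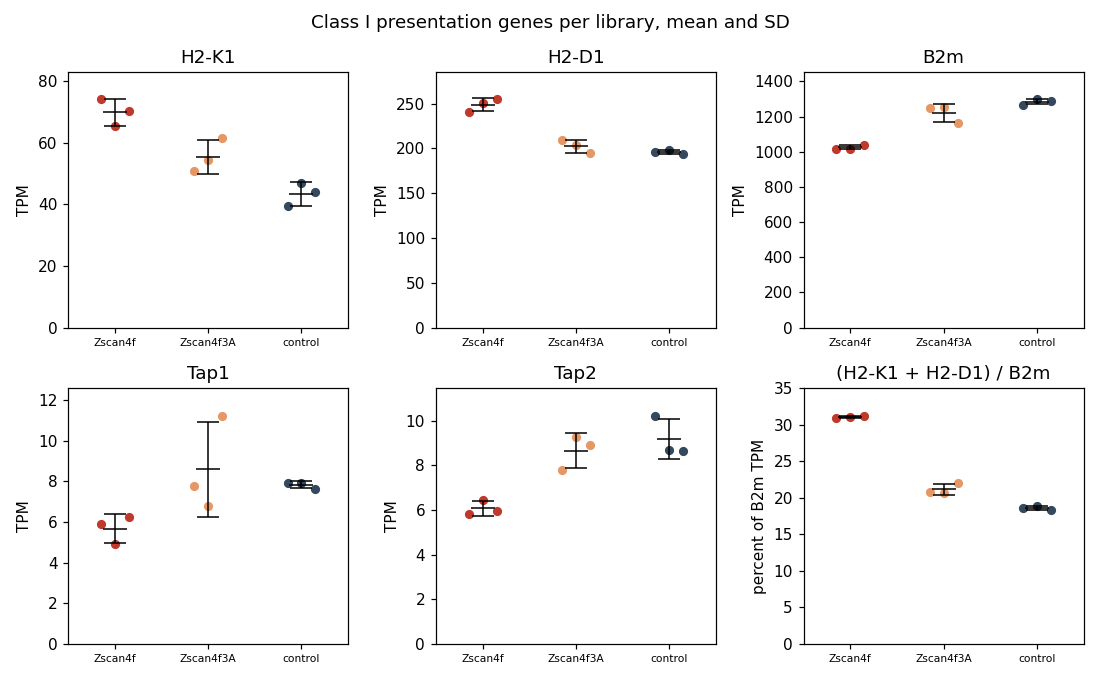
TPM (y axis, from 0) of the 5 class I presentation members in each library, with the mean and SD of each group of 3, and the summed heavy chains as a percent of B2m. Zscan4f libraries are highest for H2-K1, H2-D1 and the heavy chain share, near 31%, and lowest for B2m, Tap1 and Tap2.

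Zscan4f3A against control gave 0 calls among the 36 members by limma, with 6 of 36, or 16.7%, at an unadjusted p under 0.05, where Zscan4f against control had 20 of 36. Over all genes tested 0.0316% were called (5 of 15837) and 8.77% had an unadjusted p under 0.05, against 31.1% in the comparison of Zscan4f with control. The smallest adjusted p was that of Ifi27, at 0.30, with an unadjusted p of 0.00047 and a log2 fold change of 0.20. Adar followed at 0.19 (unadjusted p = 0.0031), H2-K1 at 0.35 (0.0040), Bst2 at 0.18 (0.016), Ifit3 at -0.27 (0.038) and Oas1a at 0.25 (0.044), each without a call. The Zscan4f3A libraries lay wholly above the control libraries in 7 of 36 members, namely Oas1a, Adar, Bst2, Ifitm3, Parp9, Ifi27 and H2-K1, and wholly below in Ifit3 and B2m. Over all genes tested the shares were 6.29% above and 9.09% below. The median log2 fold change was 0.07 over the members and -0.01 over all genes tested.

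Zscan4f against Zscan4f3A is the direct test of a difference between the overexpressed forms. It called 14 of 36 members, 10 higher and 4 lower, where 15.1% of all genes tested were called, 7.48% higher and 7.64% lower. At an unadjusted p under 0.05 there were 19 of 36 members, and 29.5% of all genes tested. Higher with Zscan4f were Oas1a, Gbp2, Gbp3, Bst2, Ifitm1, Ifitm3, Isg15, Xaf1, H2-K1 and H2-D1, and lower were Samhd1, Ifi27, Tap2 and B2m. This comparison uses the same Zscan4f libraries as that against control, so the calls of both are not independent. The log2 fold change was 0.76 (SE 0.04, adjusted p = 2.4e-05) for Ifitm1, 0.62 (SE 0.10, adjusted p = 0.0039) for Gbp3, 0.29 (SE 0.04, adjusted p = 0.0021) for Ifitm3 and 0.30 (SE 0.06, adjusted p = 0.012) for Bst2. Among the genes of presentation it was 0.30 (SE 0.04, adjusted p = 0.0012) for H2-D1 and -0.25 (SE 0.03, adjusted p = 0.0017) for B2m. Samhd1, given above, and Ifi27 fell, Ifi27 with -0.35 (SE 0.04, adjusted p = 0.00046), and Xaf1 rose with 0.42 (SE 0.08, adjusted p = 0.0099).

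Among the calls against Zscan4f3A, 4 were lost in some alternatives. That of H2-K1 (0.33, SE 0.09, adjusted p = 0.040) was lost in 10 of 16 alternatives, among them the fit with no filter, the fit on FPKM, the fit of 2 groups only and the fits without any 1 Zscan4f library, Zscan4f3A replicate 1 or 2 or control replicate 3, and adjusted p ran from 0.019 to 0.12. That of Gbp2 (0.68, SE 0.17, adjusted p = 0.029) was lost in 6 of 16 alternatives, among them the fit with no filter, the fit of 2 groups only and the fits without any 1 Zscan4f library, and adjusted p ran from 0.018 to 0.089. That of Isg15 (0.53, SE 0.13, adjusted p = 0.026) was lost in 6 of 16 alternatives, namely the fit with no filter, the fit of 2 groups only and the fits without any 1 Zscan4f library or Zscan4f3A replicate 2, and adjusted p ran from 0.0098 to 0.081. That of Tap2 (-0.45, SE 0.10, adjusted p = 0.015) was lost in 3 of 16 alternatives, namely the fits without Zscan4f replicate 1 or 3 or Zscan4f3A replicate 2, and adjusted p ran from 0.013 to 0.054. Tap1 (-0.50, SE 0.16, adjusted p = 0.072) was not called, and had adjusted p = 0.037 and a log2 fold change of -0.64 without Zscan4f3A replicate 2, in a range from 0.037 to 0.20 over 16 alternatives. Zscan4f RNA itself was higher in the Zscan4f3A libraries than in the Zscan4f libraries, so the overexpressed forms were not compared at a matched level.

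**Figure D4:**
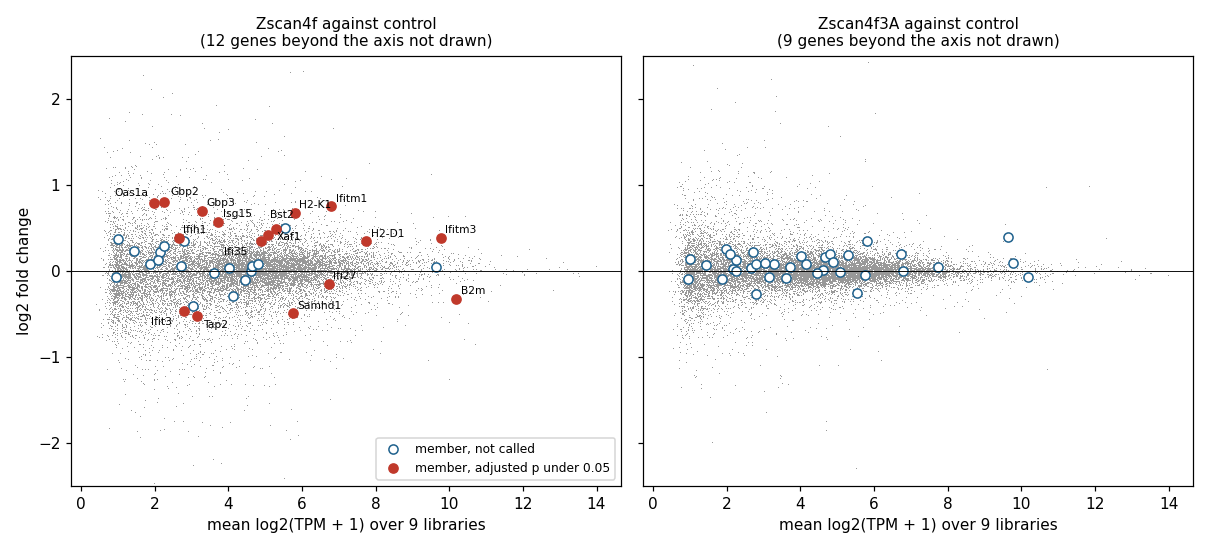
Mean log2(TPM + 1) over the 9 libraries (x axis) and log2 fold change (y axis) of all genes tested, in grey, with the 36 tested members as circles, for Zscan4f against control (left) and Zscan4f3A against control (right). The 17 called members, filled, are spread over the range of expression on the left, from Oas1a to B2m, and the right panel holds 0 of them.

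Further genes of the pathway were read from lists of other names, described by counts. Of 16 tested receptor, kinase and regulator genes 3 rose and 2 fell with Zscan4f against control, with a median log2 fold change of -0.09. That is 31.2% called, where 18.5% of all genes tested were. Socs3, an inhibitor of cytokine receptor signalling, rose, at 94.8 ± 0.779 TPM with Zscan4f, 75.2 ± 4.30 TPM with Zscan4f3A and 67.9 ± 3.20 TPM in control (log2 fold change 0.48, SE 0.05, adjusted p = 0.00037). Jak2, a kinase of the interferon gamma receptor, stood at 60.8 ± 0.672 TPM with Zscan4f, 47.1 ± 2.70 TPM with Zscan4f3A and 46.4 ± 1.28 TPM in control (0.38, SE 0.05, adjusted p = 0.0010), and Ptpn6, the phosphatase SHP-1, at 2.57 ± 0.321 TPM with Zscan4f, 0.756 ± 0.275 TPM with Zscan4f3A and 0.754 ± 0.166 TPM in control (1.03, SE 0.15, adjusted p = 0.0022). Jak1 fell slightly, to 107 ± 3.04 TPM with Zscan4f against 119 ± 0.211 TPM in control (-0.15, SE 0.03, adjusted p = 0.013), a call that was lost in 1 of 16 alternatives, namely the fit without Zscan4f replicate 3, and adjusted p ran from 0.011 to 0.055. Against Zscan4f3A the same list had 3 higher, Socs3, Jak2 and Ptpn6, and 0 lower, or 18.8% called, where 15.1% of all genes tested were.

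Of 18 tested genes that sense nucleic acids or pass that signal on, 3 rose and 1 fell with Zscan4f against control, with a median of 0.13. The share called, 22.2%, was near the 18.5% of all genes tested. Tmem173, the adaptor STING of the cytosolic DNA sensor, rose to 18.7 ± 1.70 TPM with Zscan4f against 12.7 ± 0.762 TPM in control (0.52, SE 0.12, adjusted p = 0.018). That call was lost in 3 of 16 alternatives, namely the fits without Zscan4f replicate 1 or control replicate 1 or 3, and adjusted p ran from 0.0035 to 0.063. Mavs, the adaptor of RIG-I and MDA5 on mitochondria, stood at 61.8 ± 2.72 TPM with Zscan4f and 53.4 ± 2.95 TPM in control (0.21, SE 0.06, adjusted p = 0.036). Its call was lost in 8 of 16 alternatives, among them the fit with no filter and the fits without any 1 Zscan4f library, Zscan4f3A replicate 2 or control replicate 1 or 2, and adjusted p ran from 0.022 to 0.11. Traf3, which links these adaptors to kinases, stood at 18.0 ± 6.52 TPM with Zscan4f, 19.2 ± 1.03 TPM with Zscan4f3A and 9.18 ± 0.534 TPM in control (0.84, SE 0.23, adjusted p = 0.039). Its Zscan4f replicate 3 was near the control libraries. The call was lost in 10 of 16 alternatives, among them the fit with no filter, the fit of 2 groups only and the fits without Zscan4f replicate 1 or 2, Zscan4f3A replicate 1 or 2 or any 1 control library, and adjusted p ran from 0.00015 to 0.13. Irf5, a factor downstream of Toll-like receptors, fell, at 0.457 ± 0.0760 TPM with Zscan4f and 1.02 ± 0.0629 TPM in control (-0.47, SE 0.13, adjusted p = 0.032). This call was lost in 8 of 15 alternatives, among them the fit of 2 groups only and the fits without any 1 Zscan4f library or any 1 control library, and adjusted p ran from 0.022 to 0.099. Against Zscan4f3A, Zbp1 was higher at 21.5 ± 0.689 TPM with Zscan4f and 17.4 ± 0.176 TPM with Zscan4f3A (0.29, SE 0.07, adjusted p = 0.030) and Irf5 lower (-0.48, SE 0.13, adjusted p = 0.034), together 11.1% of the list against 15.1% of all genes tested. The call of Zbp1 was lost in 7 of 16 alternatives, namely the fit with no filter and the fits without any 1 Zscan4f library or any 1 Zscan4f3A library, and adjusted p ran from 0.011 to 0.098. That of Irf5 was lost in 10 of 15 alternatives, among them the fit of 2 groups only and the fits without any 1 Zscan4f library, Zscan4f3A replicate 1 or 2 or any 1 control library, and adjusted p ran from 0.024 to 0.10.

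A list of 74 other interferon-stimulated genes had 51 tested gene IDs, of which 7 rose and 4 fell with Zscan4f against control, with a median of 0.04. That is 21.6% called, where 18.5% of all genes tested were. Lap3, an aminopeptidase, rose to 205 ± 0.867 TPM with Zscan4f against 139 ± 4.95 TPM in control (0.56, SE 0.05, adjusted p = 8.9e-05), Lgals3bp stood at 57.7 ± 2.49 TPM with Zscan4f and 41.6 ± 1.11 TPM in control (0.46, SE 0.05, adjusted p = 0.00023) and Parp12, an ADP-ribosyltransferase, at 60.0 ± 0.471 TPM with Zscan4f and 43.3 ± 3.33 TPM in control (0.46, SE 0.06, adjusted p = 0.00098). Lgals9, or galectin-9, fell to 148 ± 2.098 TPM with Zscan4f against 189 ± 6.66 TPM in control (-0.35, SE 0.04, adjusted p = 0.00028). The other 3 gene IDs that fell, named after their values were seen, belonged to the GTPases Irgm1 and Ifi47. Irgm1 stood at 21.7 ± 2.14 TPM with Zscan4f, 29.8 ± 2.99 TPM with Zscan4f3A and 34.4 ± 1.38 TPM in control (-0.65, SE 0.09, adjusted p = 0.0016), and the 2 tested gene IDs named Ifi47 had log2 fold changes of -1.04 and -0.98. The second Ifi47 ID lies on an alternate strain contig and is a copy of the same gene, so it is no separate result. Of the related GTPases in the list, Irgm2 stood at 6.42 ± 0.262 TPM with Zscan4f and 5.11 ± 0.446 TPM in control (0.28, SE 0.09, adjusted p = 0.071) and Igtp at 3.08 ± 0.168 TPM with Zscan4f and 2.54 ± 0.333 TPM in control (0.21, SE 0.13, adjusted p = 0.32), neither called. Against Zscan4f3A 5 of the 51 were higher and 5 lower, or 19.6% called where 15.1% of all genes tested were, and against control Zscan4f3A had 0 called in this and in each of the other pathway lists.

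Of 18 other tested genes of class I presentation 4 rose and 2 fell with Zscan4f against control, with a median of 0.08. That is 33.3% called, where 18.5% of all genes tested were, 8.74% higher and 9.71% lower. Tapbp, or tapasin, which bridges the peptide pump and the heavy chain, rose to 282 ± 3.35 TPM with Zscan4f against 228 ± 7.25 TPM in control (0.31, SE 0.04, adjusted p = 0.00055), and Calr, the chaperone calreticulin, stood at 1393 ± 12.2 TPM with Zscan4f and 1271 ± 15.2 TPM in control (0.13, SE 0.02, adjusted p = 0.0065). Mr1 and Cd1d1, class I-like molecules that present metabolites and lipids, fell, Mr1 at 6.13 ± 0.121 TPM with Zscan4f and 8.81 ± 0.138 TPM in control (-0.46, SE 0.09, adjusted p = 0.0081) and Cd1d1 at 16.8 ± 0.800 TPM with Zscan4f and 25.3 ± 1.70 TPM in control (-0.56, SE 0.12, adjusted p = 0.011). Against Zscan4f3A 2 of this list were higher, Tapbp and Calr, and 1 lower, Cd1d1. That is 16.7% called, near the 15.1% of all genes tested. The call of Calr against Zscan4f3A was lost in 6 of 16 alternatives, and adjusted p ran from 0.015 to 0.079. Among the inducible proteasome subunits, Psmb8 and Psmb9 did not reach 1 TPM in 3 libraries. Psmb10 rose to 15.5 ± 1.31 TPM with Zscan4f against 12.0 ± 1.29 TPM in control (0.34, SE 0.09, adjusted p = 0.036). Its call was lost in 7 of 16 alternatives, and adjusted p ran from 0.028 to 0.11. Psme2, of the proteasome activator, rose to 109 ± 4.44 TPM with Zscan4f against 92.55 ± 2.77 TPM in control (0.24, SE 0.05, adjusted p = 0.012). Neither was called against Zscan4f3A. Nlrc5, the activator of class I genes, stood at 0.613 ± 0.204 TPM with Zscan4f, 0.341 ± 0.218 TPM with Zscan4f3A and 0.171 ± 0.144 TPM in control, also below the filter. Class II presentation was nearly silent, with Ciita, its master regulator, at 0.0290 ± 0.0266 TPM with Zscan4f, 0.148 ± 0.159 TPM with Zscan4f3A and 0.0935 ± 0.0722 TPM in control, and 0 of 3 tested genes called with Zscan4f against control. Against Zscan4f3A, H2-DMb1 was lower at 1.17 ± 0.156 TPM with Zscan4f and 2.07 ± 0.124 TPM with Zscan4f3A (-0.50, SE 0.12, adjusted p = 0.021), a call that was lost in 5 of 15 alternatives, among them the fits without Zscan4f replicate 1 or 3 or Zscan4f3A replicate 1 or 2, and adjusted p ran from 0.017 to 0.071. The share called was 33.3% of the 3 tested class II genes, where 15.1% of all genes tested were called.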

How the data were processed

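HISAT2 2.1.0 was the aligner and StringTie the quantifier, per the submitters' processing notes. The sources used here give no StringTie version, genome build or annotation. TPM values, deposited per gene, are corrected for length and scaled to one total per library. FPKM values, deposited by the authors, are corrected for length and mapped fragments, and were used as an alternative. Coverage, deposited by the authors as mean depth without scaling, gave with FPKM the estimate of aligned bases. Of 54986 gene IDs 54079 were in the GRCm38 annotation, 97.7% with identical coordinates, so positions are given on GRCm38. None of the 36 pairs of libraries was identical (0).

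A gene had to reach 1 TPM in 3 of the 9 libraries, which 15837 did. These were fitted as log2(TPM + 1) with limma 3.58.1 in R 4.3.3 (group means of all 9 libraries, empirical Bayes with a trend, two-sided, Benjamini-Hochberg). The code was tested on simulated data. Figures used matplotlib 3.10.9. Groups came from the titles. Every member is accounted for: called members and those of class I presentation are given per library, and up to 4 called genes with the smallest p are named per list, with a few more named for their role or after their values were seen. Members and lists were chosen with earlier results of these data known, so no test is adjusted over a list alone. Each fit was repeated with the pseudocount at 0.1, without the filter, with 5 TPM as the minimum, on FPKM, after median-of-ratios scaling, on 2 groups only, with a replicate block and without each library in turn. The kit is named in the labels, but whether strand was used in counting is not, so overlapping genes on opposite strands may share reads.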

Additional observations from a re-analysis of the deposited data

How the results depend on the processing

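Zscan4f against control called 13 to 18 of the 36 members over 16 alternatives, and 12 of its 17 called members kept their call in each alternative that tested them. Zscan4f against Zscan4f3A called 10 to 15, and 10 of its 14 kept their call. Of the genes of the pathway lists, under the same alternatives added after the data were seen, 19 of 26 gene IDs called with Zscan4f against control kept their call and 14 of 18 against Zscan4f3A. None of these called members changed sign (0), and Zscan4f3A against control called 0 members in every alternative. Over the whole table Zscan4f against control called 2126 to 3285 genes. Zscan4f3A against control called 5 genes, and 3 with no filter, 1 with the replicate block and 1 to 16 with 1 library left out (8, 9 and 1 without control replicates 1, 2 and 3, 10 without Zscan4f replicate 3 and 16 without Zscan4f3A replicate 3). Zscan4f against Zscan4f3A called 2395 genes, and 1574 to 2168 with 1 library left out. Why these counts moved was not tested. With the replicate block Zscan4f against control called 2504 genes and 16 members, and Zscan4f against Zscan4f3A 1883 genes and 12 members. The block ended the calls of Ifih1, Mavs, Traf3 and Irf5 against control, and of H2-K1, Gbp2, Irf5 and H2-DMb1 against Zscan4f3A. Deviations of same-numbered libraries correlated at -0.0745 to 0.0849, and 8 of 18 best matches shared a number. With so few libraries these values cannot settle whether the numbers pair the libraries, and the main fits do not pair them. Median-of-ratios scaling moved the median of all genes by at most 0.00949 (log2). The heavy chain share of B2m, with alternatives added after the data were seen, ranged from 31.0 to 31.1% in Zscan4f, 20.7 to 21.4% in Zscan4f3A and 18.5 to 18.7% in control libraries. Depth limits per gene were not derived from the deposited coverage, and members near 1 TPM are least certain.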

Other observations

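Some genes of the pathway varied widely within a group. Tlr4, the receptor for lipopolysaccharide, had 21.8, 5.57 and 19.4 TPM in the Zscan4f libraries, 5.01, 7.03 and 4.36 TPM in the Zscan4f3A libraries and 23.2, 20.1 and 5.60 TPM in the control libraries, with 4 libraries near 20 TPM and 5 at or below 7.03 TPM, and it was called in no comparison. Traf3 had 22.2, 21.4 and 10.5 TPM in the Zscan4f libraries, 18.9, 18.4 and 20.4 TPM in the Zscan4f3A libraries and 8.61, 9.66 and 9.27 TPM in the control libraries. Its Zscan4f replicate 3 stood near the control libraries, while the other Zscan4f libraries stood near those of Zscan4f3A. Trim25 and Irf1, described above, also had libraries of 1 group far apart.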
